A study of Mus musculus with 9 samples.

Results

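Fc receptors are the proteins through which cells read antibodies. The 7 mouse genes described here were taken by name, among 55450 genes counted. They are the Fcγ receptor genes Fcgr1, Fcgr3, Fcgr4 and Fcgr2b, the shared signalling chain gene Fcer1g, the Fc receptor-like gene Fcrls and the neonatal Fc receptor gene Fcgrt. All 7 passed the filter on low counts in the fit over 20892 genes. RNA of dissected Substantia nigra was sequenced in 9 libraries, 3 in each of 3 groups. The CTR group was labelled GFP (control). Per the study's methods these were CX3CR1-CreERT2 mice given a Cre-inducible lentiviral vector for destabilized GFP. The CX3 group (3xCX3-Cre) carried the CX3CR1-CreERT2 allele and received a Cre-inducible Synuclein-expressing vector, so that recombination depended on tamoxifen and on the Cx3cr1 promoter, which is active in microglia and other myeloid cells. The DAT group (3xDAT-Cre) carried Cre under the dopamine transporter gene and received the same Synuclein-expressing vector. Tissue was collected 5 weeks after transduction of male mice, whose age is given as 8 weeks at injection in one place and 9 weeks at purchase in another. Tamoxifen was given for 4 days to the CX3CR1-CreERT2 mice only.

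In the immune system, FcγRI, FcγRIII and FcγRIV (from Fcgr1, Fcgr3 and Fcgr4) bind IgG and pass an activating signal through the γ chain made from Fcer1g, whose tyrosine motif is phosphorylated by Src family kinases and then recruits the kinase Syk. FcγRIIB (from Fcgr2b) binds the same ligands and carries an inhibitory motif that recruits the lipid phosphatase SHIP1, so the balance of the receptors on a cell sets how strongly it responds to antibody complexes. In brain, Fcγ receptors are found mainly on microglia and on macrophages of the borders, Fcrls is a gene characteristic of mouse microglia, and the product of Fcgrt pairs with β2-microglobulin to salvage IgG from breakdown, in endothelium among other cells.

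Reads counted on genes numbered 29378008 to 35595813 in CTR, 32892827 to 36586743 in CX3 and 21592817 to 39475428 in DAT libraries, and 3 counts, taken as the least countable signal, equalled 0.0779 to 0.151 CPM. CPM here are counts scaled to the library size after correction by the trimmed mean of M values (TMM). Neither the labels nor the methods give the number of animals behind a library, so the p-values measure only the spread between these libraries, which may be technical. Pairs of libraries of one group differed more than sampling alone would give, with mean squared differences of 1.49 to 1.89 times the sampling variance in CTR and 2.72 to 7.33 in CX3. The value was 2.38 for DAT replicates 1 and 3 and 13.7 and 18.7 for the pairs with DAT replicate 2, the shallowest library, so the members' DAT comparisons were also computed without it. Some levels of the CTR libraries went against the design as described. Cx3cr1, at whose locus the CreERT2 cassette lies, had 102.3 ± 0.900 CPM (SD, n = 3) in CTR, 44.6 ± 0.894 in CX3 and 83.4 ± 4.31 in DAT, although the same allele is described for CTR and CX3. Summed markers of plasma cells reached 310 ± 9.05 CPM in CTR against 78.4 ± 2.23 in CX3 and 15.4 ± 1.55 in DAT, and those of choroid plexus 34.4 ± 1.43 in CTR against 1510 ± 56.8 in CX3 and 924 ± 98.1 in DAT. The dopamine neuron genes Th and Slc6a3, which mark the dissected region, were present in every group but at unequal levels. Th had 81.6, 100.6 and 68.4 CPM in CTR, CX3 and DAT, and Slc6a3 130, 195.5 and 91.1. The vectors' transgenes could not be followed in counts of mouse genes. What part these differences have in the results was not tested, and the comparison of CX3 with DAT is the one that does not use the CTR libraries. It has limits of its own, since CX3 and DAT differed in Cre allele and tamoxifen. Their marker sums also differed for oligodendrocytes (20600 ± 205 against 13900 ± 419 CPM) and neurons (3260 ± 43.2 against 4230 ± 62.5), and less for astrocytes (2340 ± 60.8 against 2460 ± 41.1).

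In GRCm38, 4 of the genes lie together on chromosome 1, in the order Fcgr2b (170958617 to 170976547, minus strand), Fcgr4 (171018920 to 171029761, plus strand), Fcgr3 (171051174 to 171064935, minus strand) and Fcer1g (171229572 to 171234365, minus strand). Fcgr1 (96282909 to 96293969) and Fcrls (87250758 to 87263738) lie on the minus strand of chromosome 3, and Fcgrt (45092990 to 45103851) on the minus strand of chromosome 7. Fcgr2b and Fcgr3 are near copies in part of their length. Of all stretches of 76 bases, the read length, 5.31% in the Fcgr3 transcripts also occurred in Fcgr2b, and 5.39% of those in Fcgr2b occurred in Fcgr3 or in other genes. The other 5 genes shared no such stretch with another gene, and only Fcgr2b shared exon bases (2.68%) with a gene on the opposite strand, Gm38204, whose mean was at most 0.0173 CPM in a group.

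Fcgr4 is a classical target of interferon signalling, and the sequence just before its start site is shown because it was the only member whose promoter held the interferon-stimulated response element (ISRE) core searched. This core (GAAANNGAA) stood at −73 to −65 from the start. In the windows of 250 bases before and 50 after the start in RefSeq (GRCm38.p6), it was present in 8.56% of 32851 promoters, searched on both strands. Fcgr4 also held the core of the ETS family factor PU.1 (GAGGAA or its reverse complement) at −22 to −17, a motif in 28.3% of promoters. The 120 bases before the start are given 5′ to 3′ on the gene's strand, with the motif matches in capitals.
Fcgr4 (chr1:171018806-171018925, plus strand): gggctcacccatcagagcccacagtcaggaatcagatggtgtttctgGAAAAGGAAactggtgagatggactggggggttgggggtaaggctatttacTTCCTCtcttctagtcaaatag
All 7 members had RefSeq promoter windows, 8 in all since Fcgr3 had a pair. The PU.1 core was also found in Fcgr1 (−55 to −50), Fcgr3 and Fcrls, a TATA box (TATAAA, 13.6% of promoters) in Fcrls, and none of these motifs in Fcgr2b, Fcer1g or Fcgrt. A match describes the letters of the window and does not show that a factor binds there.

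In CX3 libraries compared with CTR libraries, Fcgr1, Fcgr3, Fcgr2b and Fcer1g were at 0.686 to 0.750 times their CTR level, Fcgr4 was higher, Fcgrt was slightly lower and Fcrls did not pass the test. In DAT libraries the Fcγ receptor genes and Fcer1g were at 0.198 to 0.333 times their CTR level, while Fcrls was slightly higher and Fcgrt did not pass the test. The genes are taken below in the order of their roles, with tests by edgeR's quasi-likelihood method (Benjamini-Hochberg adjustment over all genes, threshold 0.05). Since whole tissue was sequenced, fewer cells of a type and less RNA per cell cannot be told apart.

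Fcgr1, which encodes the high-affinity IgG receptor, had 36.3, 37.7 and 34.6 CPM in the CTR libraries, 26.0, 24.2 and 24.6 in CX3, and 11.96, 12.9 and 11.4 in DAT. The groups did not overlap, with CTR highest and DAT lowest. Against CTR it fell by 0.54 ± 0.0574 in CX3 (log2 fold change ± SE; edgeR adjusted p = 9.23e-06) and by 1.59 ± 0.0646 in DAT (edgeR adjusted p = 1.06e-10). Between the groups given the Synuclein-expressing vector, its level was 2.07 times higher in CX3 than in DAT (log2 1.05 ± 0.0655, edgeR adjusted p = 7.59e-09).

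Fcgr3, the gene of a low-affinity activating receptor and the most abundant Fcγ receptor transcript per length, had 66.1, 64.8 and 65.2 CPM in CTR, 48.8, 48.4 and 49.7 in CX3, and 19.3, 18.3 and 18.4 in DAT. Each group was tight and stood clear of the other groups. The log2 fold change against CTR was −0.42 ± 0.0433 in CX3 (edgeR adjusted p = 7.22e-06) and −1.80 ± 0.0483 in DAT (edgeR adjusted p = 1.59e-12), and CX3 exceeded DAT by 1.39 ± 0.0485 (edgeR adjusted p = 2.76e-11).

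Fcgr4 encodes the activating receptor that binds IgG of the 2a/2c and 2b subclasses. It had 12.6, 12.6 and 13.2 CPM in CTR, 17.0, 15.4 and 15.3 in CX3, and 2.55, 3.17 and 1.93 in DAT, the last from only 93, 63 and 44 counts. Unlike the other Fcγ receptor genes it was highest in CX3, with CTR between CX3 and DAT and again no overlap. Against CTR it rose by 0.31 ± 0.0874 in CX3 (log2, edgeR adjusted p = 0.0154) and fell by 2.34 ± 0.119 in DAT (edgeR adjusted p = 9.90e-10). The rise in CX3 was not stable. Its edgeR adjusted p was 0.062 without CTR replicate 1, 0.066 without CTR replicate 2, 0.0581 without CX3 replicate 1 and 0.181 in reverse-strand counts, with log2 fold changes of 0.21 to 0.30. The difference between CX3 and DAT was the largest of any member, at 6.28-fold (log2 2.65 ± 0.116, edgeR adjusted p = 2.21e-10), and 1.58% of the 20892 genes tested had a higher log2 fold change in that comparison.

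Fcer1g, the γ chain that the activating receptors need for signalling and for reaching the cell surface, had 49.0, 50.2 and 47.5 CPM in CTR, 36.4, 36.9 and 33.8 in CX3, and 15.6, 16.8 and 11.98 in DAT. Its order matched that of Fcgr1 and Fcgr3. The log2 fold change was −0.46 ± 0.0781 in CX3 (edgeR adjusted p = 0.000564) and −1.72 ± 0.0878 in DAT (edgeR adjusted p = 9.78e-10) against CTR. CX3 was above DAT by 1.27 ± 0.0884 (edgeR adjusted p = 2.42e-08). The ratio of Fcer1g to the summed activating receptors, per kilobase of exon, was 0.905 ± 0.0210 in CTR, 0.809 ± 0.0413 in CX3 and 0.966 ± 0.123 in DAT (SD, n = 3). The CX3 libraries lay below the CTR libraries in this ratio, and DAT overlapped both.

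Fcgr2b, the only inhibitory receptor gene of the family in mouse, had 55.7, 59.2 and 59.6 CPM in CTR, 40.1, 39.5 and 40.2 in CX3, and 12.9, 11.1 and 12.7 in DAT. No groups overlapped. It fell by 0.54 ± 0.0528 in CX3 (edgeR adjusted p = 3.83e-06) and by 2.24 ± 0.0613 in DAT (edgeR adjusted p = 2.01e-12) against CTR on the log2 scale, and was higher in CX3 than in DAT by 1.70 ± 0.0618 (edgeR adjusted p = 4.14e-11).

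The remaining members do not signal through the γ chain. Fcrls had 15.4, 15.3 and 16.1 CPM in CTR, 14.8, 14.2 and 14.04 in CX3, and 17.5, 20.9 and 16.6 in DAT. Its ranges did not overlap, but the distances were small and DAT replicate 2 was the highest. The log2 fold change in CX3 against CTR was −0.12 ± 0.0772 (edgeR adjusted p = 0.264), and it was −0.27 in reverse-strand counts (edgeR adjusted p = 0.0305) and 0.04 in forward-strand counts (edgeR adjusted p = 0.8). In DAT it was 0.23 ± 0.0784 (edgeR adjusted p = 0.0229), a call that was lost in 8 of 18 alternatives, among them leaving out CTR replicate 1 (0.20, adjusted p = 0.0885), CTR replicate 2 (0.19, 0.110), CTR replicate 3 (0.23, 0.0507) or DAT replicate 2 (0.13, 0.105). CX3 was below DAT by 0.35 on the log2 scale (−0.35 ± 0.0779, edgeR adjusted p = 0.00156), which with library size alone as scaling was −0.15 (edgeR adjusted p = 0.100).

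Fcgrt, whose product carries and recycles IgG, had 41.5, 41.6 and 40.2 CPM in CTR, 36.0, 32.1 and 32.9 in CX3, and 41.4, 48.7 and 41.0 in DAT. The CX3 libraries were the lowest, and CTR and DAT overlapped. It fell in CX3 by 0.29 ± 0.0673 against CTR (log2, edgeR adjusted p = 0.00535) and lay below DAT (−0.37 ± 0.0682, edgeR adjusted p = 0.000325). In DAT against CTR the value was 0.08 ± 0.0679 (edgeR adjusted p = 0.314), and −0.06 with library size alone as scaling.

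**Figure D1:**
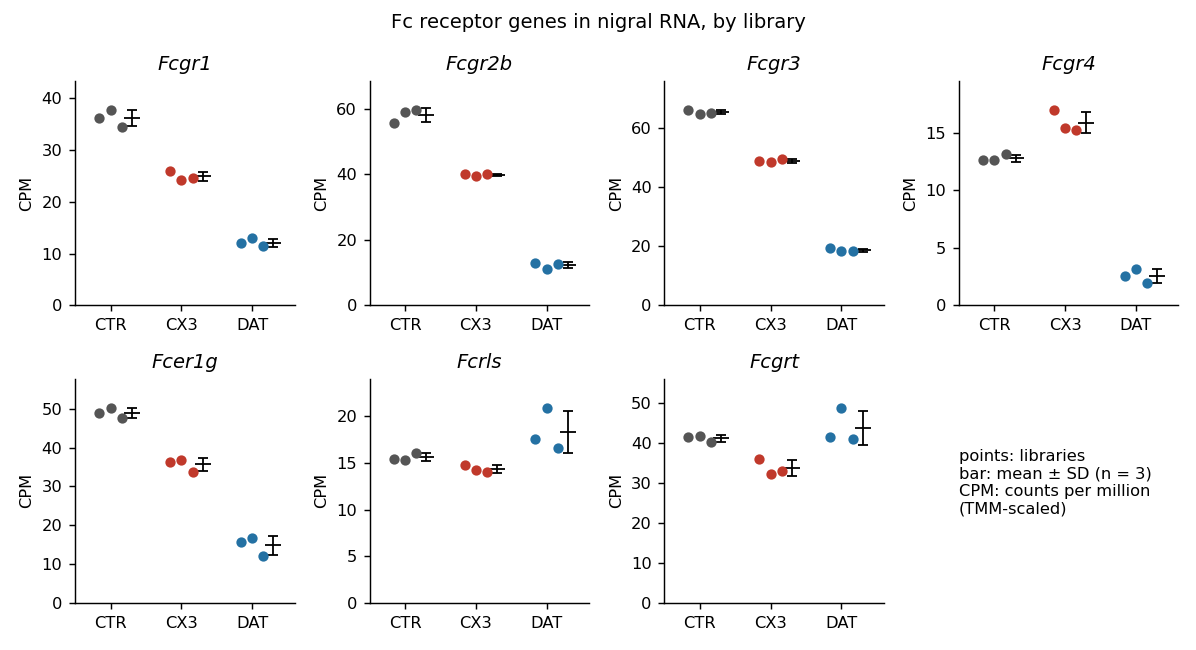
Level of each Fc receptor gene in CPM (vertical axis from 0) in the 9 libraries, with the mean ± SD of 3 libraries per group beside the points. Fcgr1, Fcgr3, Fcgr2b and Fcer1g step down from CTR to CX3 to DAT, Fcgr4 is highest in CX3 (15.3 to 17.0 CPM), and Fcrls and Fcgrt vary little.

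In total, 5 of the 7 members were called lower and 1 higher in CX3 against CTR, where 16.5% of all genes tested were called lower and 14% higher, and the members' median log2 fold change was −0.42 against −0.003 over all genes. No member changed 2-fold there, beside 2.26% of all genes lower and 1.33% higher by 2-fold. In DAT against CTR, 5 members were lower, all 5 by more than 2-fold, beside 27.9% of all genes called lower and 12% called lower by 2-fold, and 1 was higher beside 32% (3.88% by 2-fold). The members' median was −1.72. In CX3 against DAT, 5 members were higher, all by more than 2-fold, beside 27.6% and 11% of all genes, and 2 were lower beside 31.3% (4.37% by 2-fold). These 3 comparisons share libraries in pairs, so their calls are not independent. Without DAT replicate 2, the log2 fold changes against CTR of the 5 genes lower in DAT ran from −1.63 (Fcgr1) to −2.47 (Fcgr4), and that of Fcgrt was 0.00 (edgeR adjusted p = 0.994). In CX3 against DAT without that library, Fcgr1, Fcgr3, Fcgr2b, Fcgr4 and Fcer1g were higher by 1.10 to 2.79, and Fcrls (−0.25) and Fcgrt (−0.28) were lower. All these calls held except that of Fcrls in DAT against CTR, given above.

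**Figure D2:**
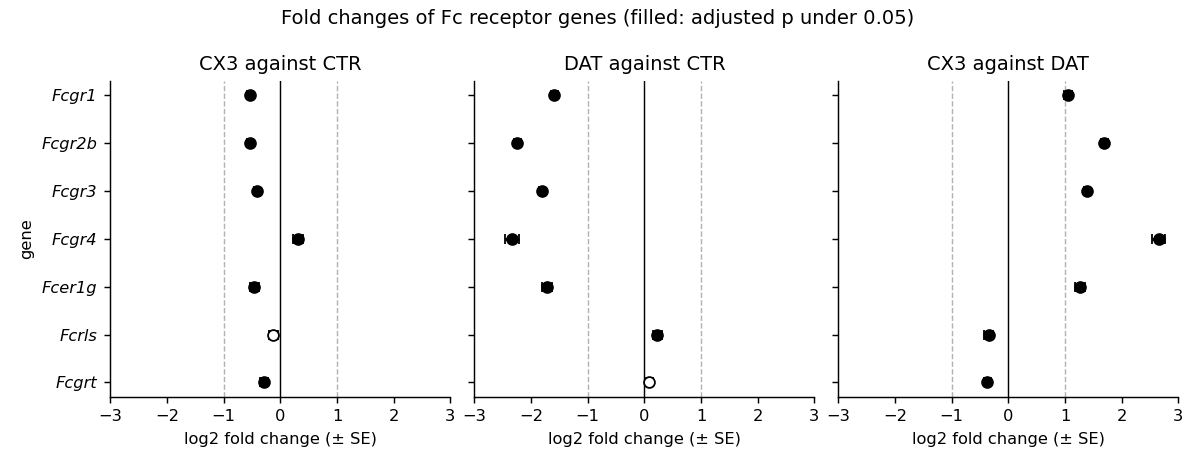
Log2 fold change (horizontal axis, ± SE) of each gene in the 3 comparisons from edgeR's fit over all genes. Filled points have an adjusted p under 0.05, and dashed lines mark 2-fold. In CX3 against CTR all points lie within 2-fold, while in DAT against CTR the Fcγ receptor genes and Fcer1g lie between −1.59 and −2.34.

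Compared per kilobase of merged exons, the order in CTR was Fcer1g (56.0 ± 1.53 CPM per kb, SD, n = 3), Fcgr3 (37.6 ± 0.382), Fcgrt (19.6 ± 0.388), Fcgr1 (13.98 ± 0.609), Fcgr4 (10.2 ± 0.243), Fcgr2b (10.05 ± 0.366) and Fcrls (6.68 ± 0.193). Fcgr4 and Fcgr2b did not differ beyond their spread. In CX3 the first 3 places were the same, but Fcgr4 (12.7 ± 0.750 CPM per kb) stood above Fcgr1 (9.64 ± 0.356) and well above Fcgr2b (6.90 ± 0.0591). In DAT, Fcgrt (20.8 ± 2.06 CPM per kb) came first and was above Fcer1g (16.9 ± 2.87) in each library, and Fcrls (7.85 ± 0.965) lay above Fcgr1 (4.67 ± 0.304). Fcgr2b (2.12 ± 0.169) and Fcgr4 (2.03 ± 0.493) were last and not distinct from each other.

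The 4 Fcγ receptor genes together amounted to 71.9 ± 0.244 CPM per kb in CTR, 57.4 ± 1.11 in CX3 and 19.6 ± 0.710 in DAT (SD, n = 3). Their make-up differed between the groups. Fcgr4 made up 14.03%, 13.95% and 14.6% of the 4 in the CTR libraries, 23.1%, 21.8% and 21.3% in CX3, and 10.2%, 12.6% and 8.20% in DAT. All CX3 libraries thus lay above all CTR libraries, and all DAT libraries below. Fcgr1 made up 19.5% ± 0.784 of the 4 in CTR, 16.8% ± 0.306 in CX3 and 23.8% ± 1.00 in DAT, and Fcgr3 52.4% ± 0.655, 49.2% ± 1.06 and 55.0% ± 1.99. Fcgr2b made up 13.4% to 14.4%, 11.8% to 12.1% and 9.61% to 11.7%. From CTR to CX3 the share of Fcgr4 moved most, and from CTR to DAT the shares of Fcgr1 and Fcgr4 moved by similar amounts in opposite directions. The ratio of Fcgr4 to Fcgr2b was 1.02 ± 0.0308 in CTR, 1.84 ± 0.105 in CX3 and 0.975 ± 0.312 in DAT. The ratio of Fcgr1 to Fcgr2b did not differ beyond the spread between CTR (1.39 ± 0.0852) and CX3 (1.40 ± 0.0462), and stood at 2.22 ± 0.329 in DAT. Fcgr3 over Fcgr2b was 3.75 ± 0.175 in CTR, 4.09 ± 0.0327 in CX3 and 5.10 ± 0.347 in DAT. The summed activating receptors over Fcgr2b came to 6.46, 6.06 and 5.96 in CTR, 7.46, 7.25 and 7.25 in CX3, and 7.97, 9.41 and 7.53 in DAT, each group clear of the others. Without DAT replicate 2, the highest, the DAT mean was 7.75. The higher ratio in CX3 than in CTR came with a higher Fcgr4 and, by a smaller step, with a higher Fcgr3 relative to Fcgr2b. That in DAT came with a Fcgr2b that was reduced more than Fcgr1 and Fcgr3. These ratios are descriptions of 3 libraries per group, with no test.

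**Figure D3:**
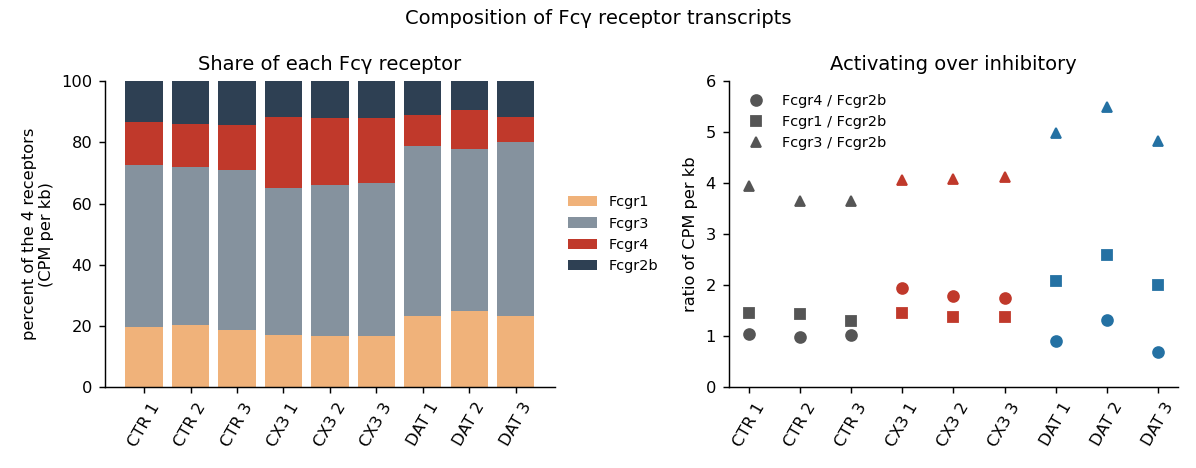
Left, percent of each Fcγ receptor gene among the 4 in CPM per kilobase, one bar per library; right, ratio of each activating receptor gene to the inhibitory Fcgr2b per library, coloured by group. Fcgr4 takes 21.3% to 23.1% in CX3 libraries against 13.95% to 14.6% in CTR and 8.20% to 12.6% in DAT.

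Several cell type markers moved with these genes. For the counts of markers called here, the shares over all genes tested were 16.5% lower and 14% higher in CX3 against CTR. In DAT against CTR they were 27.9% and 32%. Of 12 microglia markers, 9 were lower in CX3 and 10 in DAT against CTR (edgeR, adjusted p under 0.05) and none higher. Their sum was 878 ± 6.15 CPM in CTR, 621 ± 5.28 in CX3 and 603 ± 7.93 in DAT. Between CX3 and DAT, microglia markers did not move together, with 6 higher in CX3 and 3 lower, beside 27.6% and 31.3% of all genes. They ran from Aif1, 2.67 times higher in CX3 than in DAT, and P2ry13 (1.64 times) to Csf1r (0.852 times) and Cx3cr1 (0.534 times), the locus that carries CreERT2 in CX3. Monocyte markers summed to 51.8 ± 0.200, 32.3 ± 0.479 and 6.94 ± 0.224 CPM in CTR, CX3 and DAT, T cell markers to 69.3 ± 1.10, 57.9 ± 1.61 and 19.2 ± 1.87, and neutrophil markers to 3.69 ± 0.243, 1.47 ± 0.150 and 0.992 ± 0.307. These sums stepped down in the same order as Fcgr1, Fcgr3 and Fcgr2b. Within the monocyte list, however, 3 of 6 genes were higher in CX3 than in CTR and 1, Ly6c2, was lower, while all 6 were lower in DAT. Ly6c2 had 39.2 ± 0.935, 8.705 ± 0.564 and 2.40 ± 0.0644 CPM in CTR, CX3 and DAT. The fall of the monocyte sum from CTR to CX3 came from this gene, since all others of the list had higher means in CX3, not all of them called. Of the 5 neutrophil genes tested, 4 were lower in CX3 than in CTR and 1, Retnlg, was higher, on 16 to 18 counts against 4 to 7. The monocyte recruitment receptor Ccr2 had 3.79 ± 0.447, 9.72 ± 1.08 and 2.17 ± 0.148 CPM in CTR, CX3 and DAT, the order of Fcgr4. The summed dendritic cell markers had the same order, at 34.3 ± 0.923, 39.4 ± 0.992 and 30.9 ± 0.854 CPM. Among these 7 genes, 3 were higher and 1, Ccr7, lower in CX3 than in CTR, and 4 were lower and none higher in DAT. Flt3, the most abundant of them, was not called in any comparison (19.3, 19.0 and 19.1 CPM). The summed markers of perivascular macrophages were 31.3 ± 0.933 CPM in CTR, 34.8 ± 1.33 in CX3 and 41.2 ± 0.618 in DAT, with 2 of 6 higher and 1, Lyve1, lower in CX3 against CTR, and 4 higher and none lower in DAT. Endothelial markers summed to 291 ± 2.39, 368 ± 2.15 and 428 ± 12.1 CPM, with 5 of 8 higher and 2 lower in CX3, and 5 higher and 3 lower in DAT. Klra7 (NK cells) had 3 to 5 counts in CTR, 7 to 12 in CX3 and 0 in every DAT library, while Ly6g (neutrophils) had 0 to 2 counts in every library and Mcpt2 (mast cells) 0 to 5 in CTR, 10 to 15 in CX3 and 0 in DAT. Klra7 in CX3 and Mcpt2 in DAT went against the sums of their lists. NK cell markers summed to 7.72 ± 0.568, 4.76 ± 0.137 and 1.68 ± 0.336 CPM in CTR, CX3 and DAT. Of the 3 NK cell genes tested, 1 was lower and none higher in CX3, and 3 were lower in DAT against CTR. Mast cell markers summed to 2.04 ± 0.291, 6.49 ± 0.757 and 4.16 ± 0.845 CPM. Of the 5 tested, 5 were higher in CX3, and 3 were higher and 1 lower in DAT. The part of these cell types in the Fc receptor differences was not tested.

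Csf1r, the receptor gene on which microglia and macrophages depend, was chosen after its values were seen as a scale for the members, and it fell itself from 200.3 ± 0.838 CPM in CTR to 134 ± 4.64 in CX3 and 158 ± 4.41 in DAT. Relative to Csf1r, the CX3 libraries overlapped the CTR libraries for Fcgr1 (0.186 ± 0.0128 against 0.181 ± 0.00828), Fcgr2b (0.297 ± 0.0106 against 0.290 ± 0.00948) and Fcer1g (0.266 ± 0.0196 against 0.244 ± 0.00726). Fcgr3 (0.365 ± 0.0104 against 0.326 ± 0.00435) lay above CTR without overlap. Fcgr4 per Csf1r stood at 0.119 ± 0.0111 in CX3, above 0.0640 ± 0.00130 in CTR. Fcrls (0.107 ± 0.00662 against 0.0779 ± 0.00202) and Fcgrt (0.251 ± 0.0236 against 0.205 ± 0.00477) also lay above CTR on this scale. In DAT the ratio was 0.0768 ± 0.00709 for Fcgr1, 0.0776 ± 0.00411 for Fcgr2b, 0.118 ± 0.00269 for Fcgr3, 0.0941 ± 0.0178 for Fcer1g and 0.0162 ± 0.00435 for Fcgr4, all below both other groups. Fcrls (0.117 ± 0.0177) and Fcgrt (0.278 ± 0.0358) were above CTR in DAT on this scale and overlapped CX3. These ratios depend on the marker chosen. Csf1r was at 0.671 times its CTR level in CX3 and 0.788 times in DAT, while the microglia marker Aif1 was at 0.986 and 0.369 times. Of the 12 microglia markers, 9 were called lower in CX3 and 10 in DAT against CTR. Ratios to the other markers were not computed.

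**Figure D4:**
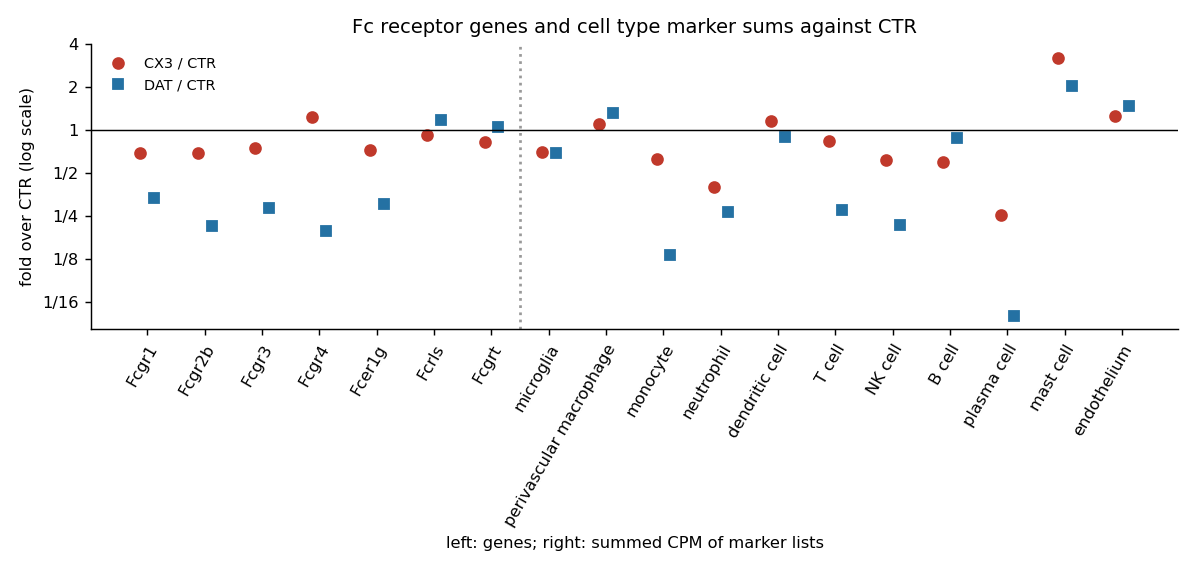
Fold over CTR (log scale) of each Fc receptor gene and of the summed CPM of 11 marker lists, with circles for CX3 and squares for DAT. The DAT values of Fcgr1, Fcgr2b, Fcgr3, Fcgr4 and Fcer1g (0.198 to 0.333) lie near those of T, NK and neutrophil markers (0.218 to 0.277). These Fc receptor values lie above those of monocyte (0.134) and plasma cell markers (0.0497) and below that of the summed microglia markers (0.687).

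Antibodies, of which IgG is the class bound by the Fcγ receptors and the Fcgrt product, were represented by 13 constant-region and joining-chain genes. Only Ighg1, Ighg2b, Ighg2c and Ighg3 encode IgG heavy chains, and RNA counts do not measure antibody protein. Of the 13 genes, 11 were lower in CX3 than in CTR and 12 lower in DAT, each by more than 2-fold (edgeR, adjusted p under 0.05). Of all genes tested, 2.26% were lower by 2-fold in CX3 and 12% in DAT. Constant-region genes are near copies of each other, so single subclasses are uncertain where reads could be shared. Ighg2c, whose IgG is a ligand of FcγRIV, had 569, 568 and 557.5 CPM in CTR, 40.8, 40.5 and 40.5 in CX3, and 3.92, 3.42 and 2.77 in DAT. Ighg2b had 338 to 340.4 CPM in CTR, 34.9 to 35.6 in CX3 and 5.71 to 7.85 in DAT. Ighg1 had 133 to 136 CPM in CTR, 39.9 to 41.5 in CX3 and 0.151 to 0.411 in DAT, the last from 3 to 15 counts. Ighg2c, Ighg2b and Ighg1 thus followed the order of Fcgr1, Fcgr3 and Fcgr2b with far wider steps, and the order of Fcgr4 differed from theirs. Not every gene of the list had this order. Ighd (0.462, 0.696 and 0.460 CPM in CTR, CX3 and DAT, not called in any comparison) and Ighe (0.127, 0.304 and 0) were highest in CX3, and Ighg3 was lowest there. Against CTR, the log2 fold change in CX3 was −3.80 ± 0.0586 for Ighg2c (edgeR adjusted p = 2.46e-14), −3.27 ± 0.0623 for Ighg2b (8.47e-14), −1.72 ± 0.0531 for Ighg1 (1.43e-11), −6.29 ± 0.149 for Ighg3 (7.34e-13), −3.09 ± 0.136 for Iglc1 (8.67e-10) and −2.85 ± 0.0636 for Igha (4.34e-13). Ighg3 was the one gene of the list called lower in CX3 than in DAT, with 0.173 to 0.313 CPM against 3.89 to 4.53. Ighe alone was called higher in CX3 than in CTR, on 10 to 13 counts against 3 to 5, and no gene of the list was called higher in 8 of 9 fits that each left out 1 library.

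Of 46 genes that carry or restrain the signal of Fc receptors, 17 were lower and 4 higher in CX3 than in CTR, with a median log2 fold change of −0.06, and 31 were lower and 11 higher in DAT, with a median of −0.85 and 20 lower by 2-fold. In CX3 against DAT, 34 were higher and 8 lower. Of all genes tested, 16.5% were called lower and 14% higher in CX3 against CTR. In DAT against CTR the shares were 27.9% lower, 12% lower by 2-fold and 32% higher. For CX3 against DAT they were 27.6% higher and 31.3% lower. Several calls lower in CX3 were of genes at the receptor. Syk, the kinase that binds the phosphorylated γ chain, was at 14.1 to 15.2 CPM in CTR, 11.1 to 11.5 in CX3 and 5.92 to 7.51 in DAT (CX3 against CTR −0.37 ± 0.0770, edgeR adjusted p = 0.00249). Tyrobp, a related adaptor chain, had 70.1 to 75.8, 54.2 to 59.9 and 23.0 to 25.7 CPM (−0.36 ± 0.0541, edgeR adjusted p = 0.000177). The Src family kinase gene Lyn was lower in CX3 (−0.28 ± 0.0640, edgeR adjusted p = 0.00443) and also in DAT (−1.34 ± 0.0712, edgeR adjusted p = 1.46e-09). Among genes that restrain the signal, the fixed rule named 3. In CX3, Inpp5d, which encodes SHIP1, changed by −0.47 ± 0.0615 (edgeR adjusted p = 6.16e-05), Ptpn6, the phosphatase SHP-1, by −0.35 ± 0.0559 (0.000357) and the adaptor Dok3 by −0.54 ± 0.109 (0.00201). Their relatives on the list were not called, with 0.04 for Inppl1 (edgeR adjusted p = 0.666), 0.02 for Ptpn11 (0.826) and −0.08 for Dok1 (0.655). The other named genes were adaptors and a phospholipase that act after Syk, with −0.57 ± 0.113 for Lat (edgeR adjusted p = 0.00174), −0.53 ± 0.0768 for Plcg2 (0.000148) and −0.52 ± 0.0861 for Blnk (0.000405). The 4 genes called higher in CX3, named after their values were seen, were Prkcd (0.47), Lat2 (0.29), Vav3 (0.16) and Cdc42 (0.14 on the log2 scale), and the count of these was 1 to 6 when single libraries were left out.

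A further list held 13 genes of other Fc receptors and their partners, of which 7 passed the filter and 6 had too few counts, among them Fcer1a and Ms4a2, the IgE receptor chains of mast cells. In CX3 against CTR 3 were lower and none higher, with a median log2 fold change of −0.09, and in DAT 4 were lower and none higher (median −0.82). The shares over all genes tested were 16.5% lower and 14% higher in CX3, and 27.9% and 32% in DAT. B2m, the partner of the Fcgrt product, had 1529 to 1550 CPM in CTR, 1424 to 1492 in CX3 and 380 to 435 in DAT. Its log2 fold change in CX3 was −0.09 ± 0.0464 (edgeR adjusted p = 0.165), and it fell by 1.94 ± 0.0483 in DAT (edgeR adjusted p = 7.64e-13), in contrast to the values of Fcgrt in the same libraries. Trim21, the gene of an Fc receptor in the cytosol, had 0.08 ± 0.0613 in CX3 (edgeR adjusted p = 0.363) and −1.50 ± 0.0719 in DAT (edgeR adjusted p = 5.09e-10). Fcrla, a B cell gene, had 1.65 to 1.97 CPM in CTR, 0.339 to 0.390 in CX3 and 0.192 to 0.352 in DAT (CX3 against CTR −2.27 ± 0.225, edgeR adjusted p = 4.60e-06), and Fcrl1, also of B cells, 0.9196 to 0.961, 0.391 to 0.664 and 0.402 to 0.702 CPM (−0.80 ± 0.258, edgeR adjusted p = 0.0317). Fcmr, the third gene lower in CX3 than in CTR and the one gene lower in CX3 than in DAT, rested on 4 to 20 counts per library.

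The cluster on chromosome 1 spans 275.7 kb, and its neighbours were looked at after the members' values were known. Between the members and within 100 kb to either side, 21 other genes passed the filter. Of these, 1 was higher and 1 lower in CX3 than in CTR, Pcp4l1 (0.60 ± 0.0515, edgeR adjusted p = 1.05e-06) and Fcrla, while 6 were higher and 7 lower in DAT, and their median log2 fold change was 0.06 in CX3 and 0.09 in DAT. Cfap126 and Sdhc, the nearest genes tested beyond Fcgr3, had values of 0.15 ± 0.182 and 0.09 ± 0.0644 in CX3 (edgeR adjusted p = 0.567 and 0.315). The reduction of Fcgr2b, Fcgr3 and Fcer1g and the rise of Fcgr4 in CX3 were not shared by most genes tested around them. Among all genes tested, 14% were called higher and 16.5% lower in CX3 against CTR. In DAT 13 of the 21 neighbours were called in either direction. This was near the share of all genes called in DAT, 32% higher and 27.9% lower.

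**Figure D5:**
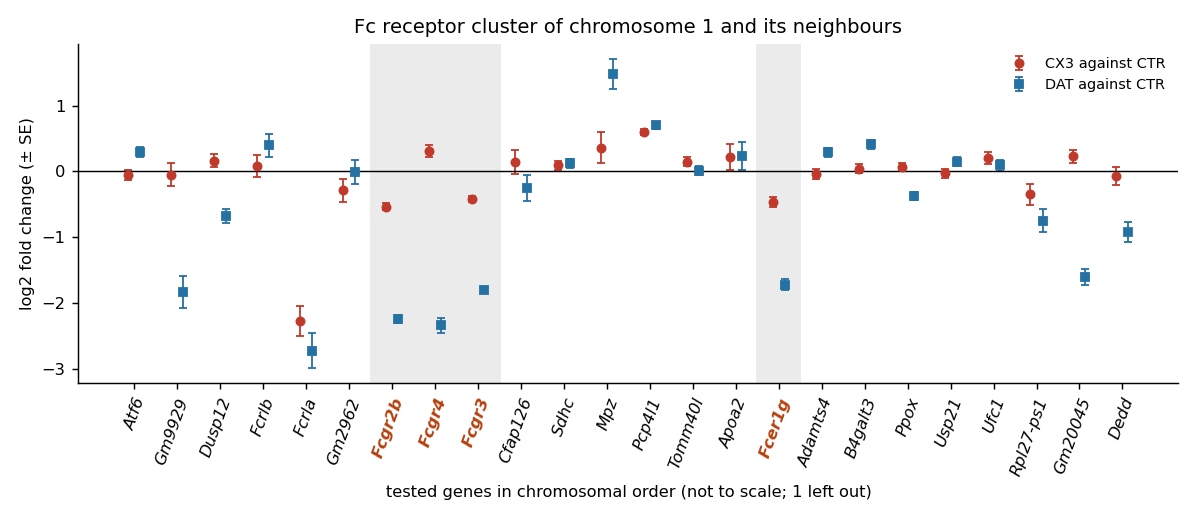
Log2 fold change (vertical axis, ± SE) against CTR of the tested genes in and around the chromosome 1 cluster, 1 of them left out, in chromosomal order and not to scale, with members on grey. Fcgr2b, Fcgr4, Fcgr3 and Fcer1g lie between −1.72 and −2.34 in DAT (squares), as low as some neighbours such as Gm9929 (−1.83) and Fcrla (−2.72). In CX3 (circles) 2 of the 21 tested neighbours were called, beside 14% of all genes called higher and 16.5% lower.

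Over the 9 libraries, the genes whose log2 CPM ran most like each member's among 16271 genes were chosen by Pearson's r, as a description in which group differences dominate. For Fcgr1 they were Gimap3, Ly6a and Cxcl10 (r = 0.999, 0.998 and 0.997), and for Fcgr2b Ighg1, Ms4a7 and Igkv1-117 (r = 0.999 for each). Fcgr3 was closest to Igkv1-117, Ighg1 and the macrophage gene Adgre1 (r = 0.99972, 0.99951 and 0.9988). Fcgr4, whose order of groups differed, was closest to the myeloid gene Lyz2, to Cd52 and to Gtf2a2 (r = 0.997, 0.997 and 0.996), and Fcer1g to Rab10os, Rasal3 and Lpcat2 (r = 0.996, 0.996 and 0.995). For Fcrls the genes were D10Jhu81e, Tram1l1 and Cnot8 (r = 0.991, 0.984 and 0.979) and for Fcgrt Psmc4, Sfr1 and Tac1 (r = 0.992, 0.988 and 0.984).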

How the data were processed

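Processed counts were taken as deposited. The authors deposited, for each library, raw counts of reads per gene in 3 columns (both strands, and each strand), in the layout of STAR's gene counts. The submitters' processing notes name Trimmomatic, STAR, featureCounts, DESeq2 and mm10, with no versions. Libraries were made from 1 microgram of RNA with a kit described as stranded and read for 76 bases. Yet the reverse strand held 49.8% to 49.9% of strand-specific counts in each library, so the column of both strands was used. Reads on no gene made up 5.20% to 9.46% of mapped reads and were left out. All 55450 identifiers matched GENCODE M21, which gave symbols and exons.

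Groups were taken from the sample labels. One edgeR 4.0.16 quasi-likelihood fit (R 4.3.3) over all 9 libraries used TMM scaling and edgeR's expression filter, with Benjamini-Hochberg adjustment over 20892 genes. The script was tested on simulated data first. Marker and pathway genes were described by counts and medians, without set tests. Named genes were the 7 members, a fixed set of partners and antibody genes, and from each list up to 5 called genes of at least 0.5 CPM with the largest change in CX3 against CTR. Ighe, Fcmr, Ccr2, Ly6c2, other single genes of the cell type lists, the markers at 0 and the neighbours of the cluster were named after their values were seen. Likeness used genes of at least 1 CPM, with 0.5 CPM added before log2. The members and lists were chosen with earlier results of these data known. Alternatives were other scalings, DESeq2 1.42.0, other filters, single strands, fits on 2 groups, the replicate letter as a block and leaving out each library. Motif searches and figures used Python 3.11.15 and matplotlib 3.10.9. The 3 counts taken as a floor cover counting error only. Results for some genes and motifs are not reported here.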

Additional observations from a re-analysis of the deposited data

How the results depend on the processing

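The calls of Fcgr1, Fcgr2b, Fcgr3 and Fcer1g in all 3 comparisons, those of Fcgr4 in both comparisons with DAT and those of Fcgrt against CX3, held under all 18 alternatives. With library size alone as scaling, the median of all genes moved to −0.15 in DAT against CTR and 0.20 in CX3 against DAT. Genes higher in CX3 than in DAT then rose from 5767 to 8916, or from 46.8% to 66.7% of calls, and the split went from 53.4% to 37.8% higher in DAT against CTR and from 45.9% to 58.9% in CX3 against CTR. Under this scaling Fcgrt reversed in DAT (−0.06), 0 members were higher in DAT, 1 was lower in CX3 than in DAT, and 6 signalling genes were higher in DAT and 4 lower in CX3 than in DAT. In forward-strand counts Fcrls reversed in CX3 against CTR (0.04) and Fcgrt in DAT (−0.01), 0 members were higher in DAT, 1 was lower in CX3 than in DAT, and 7 signalling genes were higher in DAT. Reverse-strand counts gave 0 members higher in CX3 and 0 in DAT, 7 signalling genes higher in DAT, and among other Fc receptor genes 1 lower in CX3 than in CTR and 0 lower than in DAT. Single strands hold fewer reads. In both, and with DESeq2, without a gene filter and with a replicate block, 0 antibody genes were higher in CX3 than in CTR. DESeq2 left 2 signalling genes higher in CX3, and 4 other Fc receptor genes were higher in CX3 than in DAT without a filter. Fits of 2 groups gave 0 members and 7 signalling genes higher in DAT. Replicate letters did not pair the libraries, since same-letter correlations ran from −0.515 to 0.409, and the replicate block left 1 signalling gene higher in CX3 and, beside the antibody genes above, changed no other count of calls by over 1.5 times.

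Leaving out 1 library at a time, members higher in CX3 than in CTR numbered 0 to 1 and in DAT 0 to 1, signalling genes higher in CX3 1 to 6 and in DAT 7 to 12, antibody genes higher in CX3 0 to 1, and other Fc receptor genes lower in CX3 1 to 4. The cause of these changes was not tested. Fcgr4 in DAT, at 44 to 93 counts, is the least precise member.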
